A study of Rattus norvegicus with 6 samples.

Results

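This set holds 35 genes of glycolysis and of the response to low oxygen, measured in soft tissue around a dental implant and in healed oral mucosa of the rat. Members were found by gene symbol among the probe sets that the array annotation gives to a single gene, with the brightest probe set standing for the gene. Of the 35 genes, 34 had such a probe set, out of 14217 genes named on the array; Pkm had none and was not analysed here. Male Sprague-Dawley rats aged 4 weeks lost the upper first molar on each side, and a titanium alloy implant was set into the left socket alone. After 4 weeks the soft tissue around the implant was taken on the left, and on the right the mucosa that had closed over the empty socket. Every sample in both groups therefore came from an extraction site, and the presence of an implant cannot be told apart from the side of the mouth. There were 3 arrays per group, and the labels do not say whether the samples came from separate rats or from pools, so the spread between them may be technical.

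Glycolysis splits glucose into pyruvate in the cytosol, and lactate dehydrogenase turns pyruvate into lactate when it is not passed to the mitochondria. Hypoxia-inducible factor (HIF) is a transcription factor whose alpha subunit is marked for destruction by oxygen-dependent prolyl hydroxylases. When oxygen falls, HIF accumulates and induces glucose transporters, most glycolytic enzymes and genes of blood vessel growth, mitophagy and feedback. Many of these genes also answer to other signals, among them inflammatory signals, growth factors and fatty acid sensors.

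The genes did not move as one block. The HIF targets Adm, Bnip3 and Ndrg1, the oxygen sensor Egln3 and the phosphofructokinase Pfkp fell in peri-implant tissue. The HIF targets Angptl4 and Vegfa, the lactate exporter Slc16a3, the glucose transporter Slc2a1 and the glycolytic activator Pfkfb3 rose. Among these genes, the calls of Slc2a1 and Pfkfb3 did not hold under every other way of processing that was run. Of the 34 measured genes 32 passed the filter on low signals and were tested; 9 were lower, 6 were higher and 17 did not pass the threshold of 0.05 for the adjusted p of limma. These are 28.1% lower and 18.8% higher, against 11.0% lower and 15.2% higher among all 10585 genes tested (26.1% in either direction, and 22.5% of all 18625 probe sets). The groups did not overlap for 14 genes that were lower and 7 that were higher, which is 43.8% and 21.9% of those tested. Over all genes tested these shares were 17.9% and 24.0%, or 41.9% in either direction. The genes not tested were Slc2a3, whose mean signal lay under the filter, and Gapdh, which this array measures with control probe sets.

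**Figure D1:**
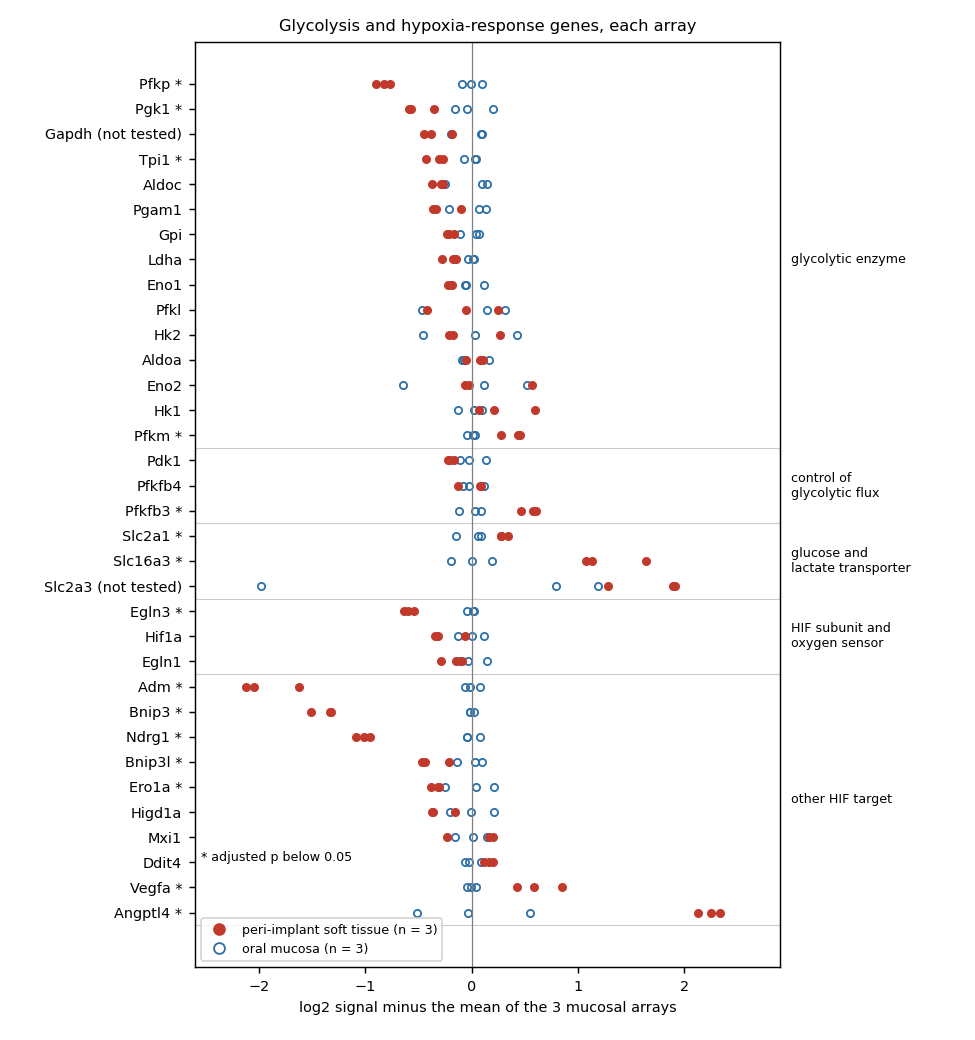
Log2 signal of each of the 34 measured genes on every array, as the difference from the mean of the 3 mucosal arrays (filled, peri-implant; open, mucosa), by role and ordered by the difference; an asterisk marks an adjusted p below 0.05. Adm lies 1.93 below and Angptl4 2.24 above the mucosal mean, while most glycolytic enzymes lie within 0.5 of it.

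Among the HIF subunits and oxygen sensors, Egln3 fell and the others did not pass. Egln3, a prolyl hydroxylase that is itself induced by HIF, read 11.30, 11.34 and 11.40 (log2 signal) on the peri-implant arrays and 11.95, 11.96 and 11.89 on the mucosal arrays. All 3 peri-implant values lay below all 3 mucosal ones, and the values within each group lay close together. The fall was 0.59 (SE 0.07, limma adjusted p = 3.68e-05). Hif1a, the oxygen-regulated alpha subunit, stood at 14.01 ± 0.16 against 14.25 ± 0.12 (SD, n = 3 each; limma adjusted p = 0.101). With peri-implant array 3 left out, Hif1a passed at a difference of -0.33 (limma adjusted p = 0.0344). HIF is regulated mainly as a protein, which an array does not measure. Egln1, the prolyl hydroxylase that sets HIF levels in most cells, stood at 10.97 ± 0.10 against 11.14 ± 0.13 (limma adjusted p = 0.187).

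The other HIF targets held the largest changes in both directions, with falls in 5 of 10, rises in 2 and no call in 3. The shares over all genes tested were 11.0% lower and 15.2% higher. Adm encodes adrenomedullin, a peptide that widens vessels. Its signals were 8.09, 7.60 and 7.67 in peri-implant tissue and 9.80, 9.70 and 9.65 in mucosa. The gap between the groups was far wider than the spread of either, and the signal was 3.81-fold lower around implants (log2 difference -1.93, SE 0.15, limma adjusted p = 8.95e-07). Bnip3, a mitochondrial receptor for mitophagy, stood at 11.71, 11.70 and 11.52 against 13.02, 13.02 and 13.06. Mucosal arrays were nearly identical for this gene, and it was 2.62-fold lower around implants (SE 0.07 on the log2 scale, limma adjusted p = 2.56e-08). Bnip3l, its close relative, known for clearing mitochondria from maturing red cells, fell by 0.37 (SE 0.10), from 14.25 ± 0.12 to 13.88 ± 0.14 (limma adjusted p = 0.0134). That call was lost without peri-implant array 1 or 2 (limma adjusted p = 0.0747 and 0.0741), and in the fit with no variance trend (limma adjusted p = 0.0911). A second Bnip3l probe set fell by 0.58 (limma adjusted p = 8.56e-05).

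Ndrg1, a stress-response gene of differentiating epithelium and of myelinating Schwann cells, read 12.41, 12.48 and 12.54 against 13.46, 13.45 and 13.58. It was 2.03-fold lower, again without overlap between the groups (SE 0.07 on the log2 scale, limma adjusted p = 4.79e-07). Its other probe set, much dimmer, fell by 1.47 (SE 0.40, limma adjusted p = 0.0169). Ero1a, an oxidase that forms disulfide bonds in the endoplasmic reticulum, fell by 0.34 (SE 0.10, limma adjusted p = 0.0346). Its peri-implant values of 10.67, 10.74 and 10.74 lay just below mucosal ones of 10.80, 11.26 and 11.09. Removing any array except mucosal array 1 lost this call (limma adjusted p from 0.0714 to 0.121). It was also lost in the fits with no filter and with no variance trend (limma adjusted p up to 0.160). A second Ero1a probe set also fell, by 0.62 (limma adjusted p = 0.0490).

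Angptl4 and Vegfa went the other way. Angptl4, a secreted inhibitor of lipoprotein lipase that also answers to fatty acids, read 8.25, 8.13 and 8.33 around implants and 5.96, 6.55 and 5.48 in mucosa. The mucosal values were scattered about the dim floor of 5.90, the 40th percentile of all single values, and the highest of them was still well below the peri-implant range. The difference was 2.24 (SE 0.29, limma adjusted p = 9.05e-05), or 4.72-fold, and 2.10 with values below the floor raised to it. Vegfa, the main growth factor for vessels, stood at 11.22, 10.79 and 10.95 against 10.36, 10.32 and 10.41. Here the peri-implant arrays varied more than the mucosal ones but did not overlap them, and the signal was 1.54-fold higher (log2 difference 0.62, SE 0.10, limma adjusted p = 5.82e-04). Its second probe set was higher by 0.75 (SE 0.24, limma adjusted p = 0.0408).

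The members of this group that did not pass were Ddit4, Mxi1 and Higd1a. Ddit4, an inhibitor of growth signalling through mTOR, stood at 11.57 ± 0.04 against 11.40 ± 0.08 (limma adjusted p = 0.131). Mxi1, a repressor that opposes Myc, stood at 11.53 ± 0.24 against 11.48 ± 0.15 (limma adjusted p = 0.827). Higd1a, a small mitochondrial protein, stood at 14.78 ± 0.12 against 15.07 ± 0.20 (limma adjusted p = 0.0862). The Higd1a difference of -0.29 passed when mucosal array 1 was left out (-0.39, limma adjusted p = 0.0243), and with the replicate number as a block (limma adjusted p = 0.0268). A second and dimmer Higd1a probe set fell by 0.29 as well, at a limma adjusted p of 0.00840. Without peri-implant array 1, and likewise without peri-implant array 2, 3 rather than 5 genes of this group were lower.

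Most genes with a second informative probe set gave the same call with it. Of 10 other probe sets that were tested, 6 belonged to called genes, of which 5 gave the same call, 1 did not pass and 0 gave the opposite one.

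**Figure D2:**
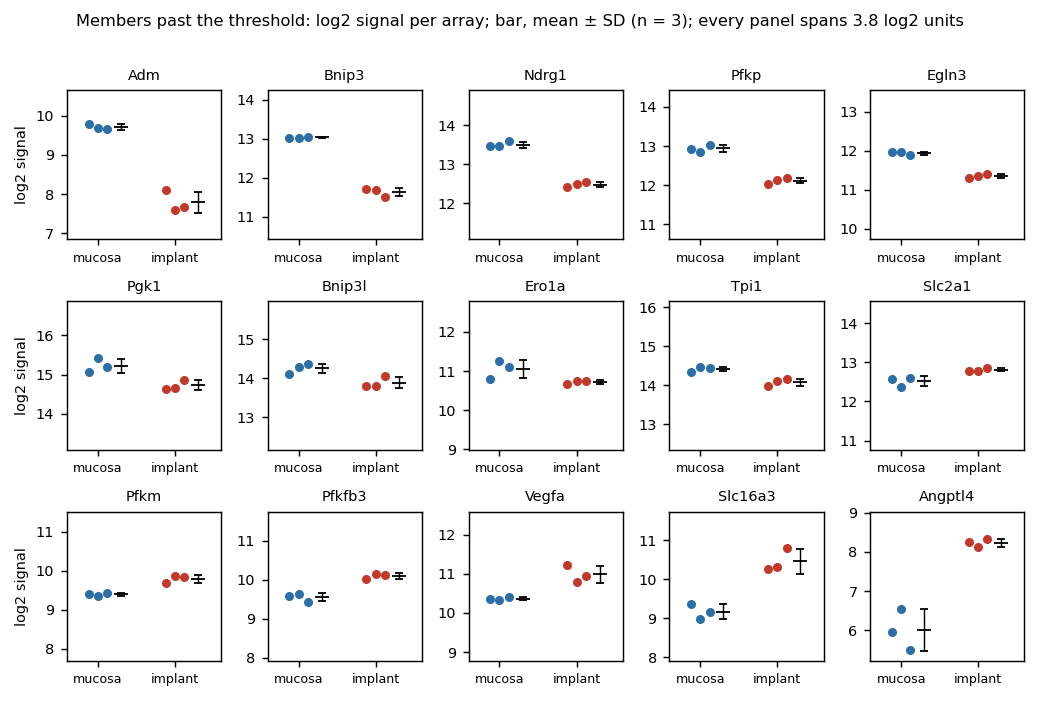
Log2 signal per array for the 15 genes past the threshold, mucosa in blue and peri-implant tissue in red, with the mean ± SD of 3 arrays as a bar; every panel spans the same height. The panels run from the largest fall, Adm, to the largest rise, Angptl4, and the groups overlap in none of them.

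HIF binds DNA at a core of ACGTG or GCGTG, and the promoters of the largest falls and rises past the threshold are shown to set that core beside the changes. The windows are the 250 bases before the annotated start in RefSeq (build GRCr8), 5′ to 3′ on the gene's strand, with every match to ACGTG or GCGTG on either strand in capitals.
Adm (chr1:174179950-174180199, plus strand): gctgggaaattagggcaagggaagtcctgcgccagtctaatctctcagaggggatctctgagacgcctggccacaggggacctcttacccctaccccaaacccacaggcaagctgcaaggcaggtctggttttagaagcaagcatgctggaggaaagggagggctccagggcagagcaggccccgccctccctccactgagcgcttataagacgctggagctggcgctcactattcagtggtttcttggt
Bnip3 (chr1:203154963-203155212, minus strand): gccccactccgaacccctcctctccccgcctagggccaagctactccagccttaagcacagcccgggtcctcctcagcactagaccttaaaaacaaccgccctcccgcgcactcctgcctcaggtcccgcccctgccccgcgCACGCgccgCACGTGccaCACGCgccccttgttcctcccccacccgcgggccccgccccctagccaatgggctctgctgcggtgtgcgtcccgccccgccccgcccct
Angptl4 (chr7:15258682-15258931, minus strand): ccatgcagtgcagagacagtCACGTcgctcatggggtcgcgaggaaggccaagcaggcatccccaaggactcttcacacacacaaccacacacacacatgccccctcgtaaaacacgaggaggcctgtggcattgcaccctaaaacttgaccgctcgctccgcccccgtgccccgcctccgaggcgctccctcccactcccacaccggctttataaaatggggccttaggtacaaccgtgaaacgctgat
Slc16a3 (chr10:106712078-106712327, plus strand): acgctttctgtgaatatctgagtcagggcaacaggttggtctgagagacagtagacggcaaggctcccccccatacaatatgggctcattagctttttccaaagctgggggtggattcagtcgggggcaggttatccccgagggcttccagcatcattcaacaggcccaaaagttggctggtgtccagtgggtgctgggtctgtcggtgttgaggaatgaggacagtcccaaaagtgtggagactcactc

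Bnip3, which fell, had 4 matches, of which the ACGTG pair shares the palindrome CACGTG, read once on each strand 94 to 99 bases before the start. Angptl4, which rose, had 1 match, 226 to 230 bases before the start. Neither Adm, the largest fall, nor Slc16a3, among the largest rises, had one in this window, which says nothing of sites elsewhere. A window was at hand for 29 of the 34 measured genes, and 19 of these (65.5%) held at least 1 match. The share was 37.9% over all 27457 promoters of the same length, and 52.1% over the 11734 promoters of genes named on the array. Those sets also differ in base composition, with a median GC content of 63.6%, 52.0% and 59.2%. Of the lower genes with a window 2 of 5 held a match, of the higher genes 4 of 6, and of those not past the threshold 12 of 17. Matches were thus present among genes that fell, rose and did not pass, and the set is too small to compare these shares.

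Of the 3 transporters for glucose and lactate, Slc16a3 and Slc2a1 rose around implants and Slc2a3 was not tested. Slc16a3 encodes MCT4, which exports lactate from glycolytic cells. It read 10.25, 10.30 and 10.81 in peri-implant tissue against 9.36, 8.98 and 9.17 in mucosa. Array 3 stood above the other peri-implant arrays, and the lowest peri-implant value was still above the highest mucosal one. The signal was 2.43-fold higher (log2 difference 1.28, SE 0.15, limma adjusted p = 2.91e-05). Slc2a1, the widely expressed glucose transporter GLUT1, read 12.79, 12.79 and 12.86 against 12.57, 12.37 and 12.60. It was higher by 0.30 (SE 0.08, limma adjusted p = 0.0150), a small gap between groups that did not overlap. This call was lost without peri-implant array 3 or mucosal array 2 (limma adjusted p = 0.0546 and 0.0558), with arrays centred on their median (limma adjusted p = 0.114), and in the fit with no variance trend (limma adjusted p = 0.106). Slc2a3, the high-affinity transporter GLUT3 of neurons and leukocytes, read 6.56, 6.55 and 5.93 against 5.84, 5.45 and 2.67. Its mucosal arrays all lay below the floor, and its mean over all arrays was too low for it to be tested. The difference of 1.70 shrank to 0.45 with the floor, and in the fit with no filter it did not pass (limma adjusted p = 0.214).

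Of the genes that set the flow through glycolysis, Pfkfb3 rose and the others did not pass. Pfkfb3 makes fructose 2,6-bisphosphate, the strongest activator of phosphofructokinase, and stood at 10.02, 10.15 and 10.13 against 9.59, 9.64 and 9.43. Values were tight within each tissue and the signal was 1.46-fold higher (log2 difference 0.55, SE 0.10, limma adjusted p = 9.77e-04). The mean of its 3 probe sets gave -0.12 (limma adjusted p = 0.843), with the 2 others below the floor in both tissues. Its relative Pfkfb4 stood at 9.93 ± 0.12 against 9.91 ± 0.10 (limma adjusted p = 0.945). Pdk1, a kinase that switches pyruvate dehydrogenase off, stood at 9.95 ± 0.03 against 10.15 ± 0.12 (limma adjusted p = 0.149).

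The glycolytic enzymes showed small differences, mostly downward, with 3 of 14 tested lower (Pfkp, Tpi1 and Pgk1), 1 higher (Pfkm) and no call for 10. Over all genes tested 11.0% were lower and 15.2% higher. Among all tested genes with a mean signal above 14, as Tpi1 and Pgk1 have, 23.8% were lower. In pathway order, the hexokinases Hk1 and Hk2, which trap glucose in the cell, stood at 10.28 ± 0.28 against 9.99 ± 0.11 and at 6.86 ± 0.27 against 6.90 ± 0.45 (limma adjusted p = 0.119 and 0.945). With peri-implant array 1 left out, Hk1 was higher by 0.41 and passed (limma adjusted p = 0.0458). Gpi, glucose-6-phosphate isomerase, stood at 12.39 ± 0.04 against 12.60 ± 0.10, with groups that did not overlap and a limma adjusted p of 0.0674. Gpi passed when mucosal array 2 was left out (limma adjusted p = 0.0294).

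Phosphofructokinase, the committed step, has platelet, muscle and liver type subunits that combine into tetramers. The platelet type Pfkp read 12.04, 12.12 and 12.17 around implants and 12.93, 12.85 and 13.04 in mucosa, 1.78-fold lower (log2 difference -0.83, SE 0.08, limma adjusted p = 3.99e-06). The muscle type Pfkm read 9.68, 9.85 and 9.84 against 9.41, 9.35 and 9.43, 1.31-fold higher (log2 difference 0.39, SE 0.10, limma adjusted p = 0.0110). So the subunit genes moved in opposite directions, with no overlap between the groups for either. The log2 difference of the Pfkp and Pfkm signals, a comparison chosen after their values were seen, was 2.36, 2.27 and 2.33 on the peri-implant arrays and 3.52, 3.49 and 3.60 on the mucosal ones. Signals of different probe sets are not on one scale, so only its change of -1.22 between tissues can be read. The call for Pfkm was lost without peri-implant array 2 and with arrays centred on the median (limma adjusted p = 0.0608 and 0.0582), as it was with the mean of the gene's probe sets (difference 0.28, limma adjusted p = 0.533). A dimmer Pfkm probe set with a difference of 0.48 did not pass (limma adjusted p = 0.372). The liver type Pfkl stood at 7.44 ± 0.34 against 7.51 ± 0.41 (limma adjusted p = 0.879).

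Of the aldolases, which cleave the sugar, the muscle type Aldoa stood at 14.57 ± 0.08 against 14.52 ± 0.14 and the brain type Aldoc at 8.71 ± 0.06 against 9.02 ± 0.22 (limma adjusted p = 0.776 and 0.134). With mucosal array 2 left out, Aldoc fell by 0.43 (limma adjusted p = 0.0340). Tpi1, triosephosphate isomerase, read 13.98, 14.10 and 14.15 against 14.34, 14.45 and 14.44. It was lower by a log2 difference of -0.33 (SE 0.08, limma adjusted p = 0.0112), without overlap between the groups, and without peri-implant array 1 the call was lost (limma adjusted p = 0.0739). Pgk1, phosphoglycerate kinase, read 14.64, 14.66 and 14.87 against 15.06, 15.42 and 15.18 and was 1.42-fold lower (SE 0.11 on the log2 scale, limma adjusted p = 0.00533). A second Pgk1 probe set, one that can share sequence with related transcripts, fell by the similar amount of 0.51 (limma adjusted p = 4.17e-04). A fit with no variance trend called neither Tpi1 nor Pgk1 (limma adjusted p = 0.0666 and 0.0534).

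Gapdh, glyceraldehyde-3-phosphate dehydrogenase, is often used as a reference gene. Its 3 control probe sets read 14.97 ± 0.14, 14.45 ± 0.07 and 14.79 ± 0.10 for the 3′ end, middle and 5′ end around implants, and 15.31 ± 0.17, 14.75 ± 0.17 and 15.14 ± 0.15 in mucosa. In a fit that also took in the Gapdh and Hk1 control probe sets, added after seeing the data, these fell by 0.34, 0.30 and 0.36 (limma adjusted p = 0.0468, 0.0451 and 0.0239). The groups overlapped for the 3′ probe set, which stands for the gene, and not for the others. Under quantile normalisation the Gapdh differences were -0.28, -0.16 and -0.29. The last steps of the pathway did not pass. Pgam1, phosphoglycerate mutase, stood at 14.94 ± 0.14 against 15.20 ± 0.19 (limma adjusted p = 0.124), and it passed without mucosal array 1 (limma adjusted p = 0.0291). Eno1, the ubiquitous enolase, stood at 13.93 ± 0.02 against 14.13 ± 0.10, and Eno2, the neuronal one, at 6.96 ± 0.35 against 6.80 ± 0.59 (limma adjusted p = 0.105 and 0.784). Ldha, the lactate dehydrogenase subunit that favours lactate, stood at 14.48 ± 0.07 against 14.68 ± 0.03 (limma adjusted p = 0.108). The lower enzymes numbered 5 in place of 3 when mucosal array 2 was left out, and 1 in the fit with no variance trend.

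Set side by side, the enzymes and the other HIF targets had medians of the same sign and differed in range. The median difference was -0.20 over the 15 measured enzymes and -0.31 over the 10 other targets, beside 0.03 over all genes tested. In size regardless of direction, the medians were 0.26 and 0.50, beside 0.24 over all genes. Enzyme differences ran from -0.83 to 0.39, and those of the other targets from -1.93 to 2.24. Array by array, the median deviation of the enzymes from their own means over all arrays was -0.14, -0.12 and -0.10 around implants and 0.05, 0.12 and 0.20 in mucosa. The same measure of the other targets was -0.23, -0.18 and -0.01 against -0.03, 0.18 and 0.25, so the groups overlapped, with peri-implant array 3 above mucosal array 1. Whether enzymes and targets differ from each other was not tested, since the genes were chosen with results of these arrays known.

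Of the 34 measured genes, 10 had a mean above 14: Aldoa, Tpi1, Gapdh, Pgk1, Pgam1, Eno1, Ldha, Hif1a, Bnip3l and Higd1a. Of these, Gapdh was not tested, 3 passed as lower, and Aldoa had a difference of 0.05. All 181 tested genes of that brightness had a median difference of -0.14, and 23.8% of them were lower. Under quantile normalisation, which gives every array the same distribution, that median became 0.0028 and the enzymes' median -0.14, while the lower calls went from 43 to 49 among all genes of that brightness and from 3 to 5 among the bright genes of the set. The difference of Tpi1 shrank to -0.18 (limma adjusted p = 0.0151), that of Eno1 to -0.06 (limma adjusted p = 0.429) and that of Ldha to -0.08 (limma adjusted p = 0.395), whereas that of Pgk1 was -0.43 (limma adjusted p = 1.69e-04). Pgam1 and Higd1a were called lower only under this scaling among the scalings run (limma adjusted p = 0.00843 and 0.00396), and Aldoa higher by 0.18 (limma adjusted p = 0.0465). Larger changes below that brightness hardly moved, at -1.99 for Adm, -1.33 for Bnip3, -0.95 for Ndrg1, -0.77 for Pfkp and 2.22 for Angptl4.

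**Figure D3:**
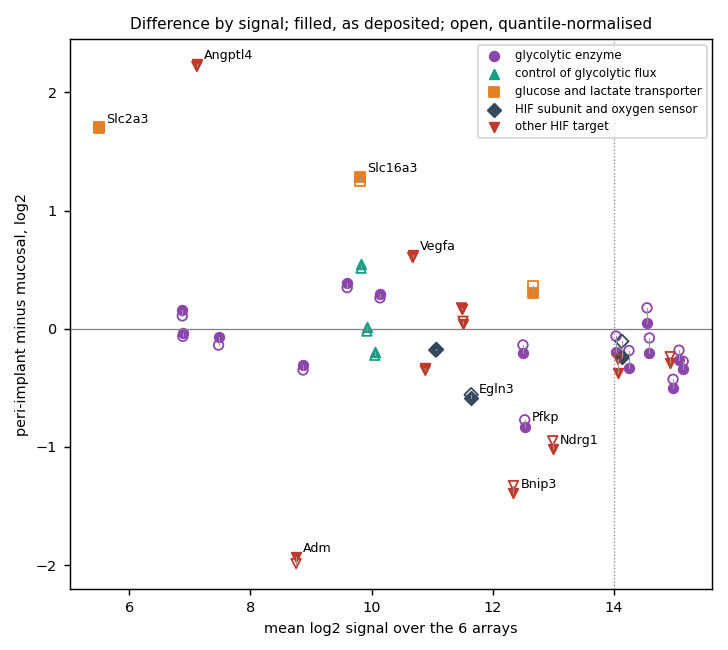
Peri-implant minus mucosal log2 difference of the 34 measured genes against their mean log2 signal over the 6 arrays, as deposited (filled) and after quantile normalisation (open), with a dotted line at 14. To the right of the line most open symbols lie nearer to 0 than the filled ones, as for Eno1 (-0.06 against -0.20), while Adm, Bnip3, Angptl4 and Slc16a3 hardly shift.

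Other genes of the same pathways were likewise split. Among 35 further genes known to be induced by low oxygen, 30 were tested, of which 10 were higher and 8 lower, with a median difference of 0.03 over the 34 measured. Over all genes tested 15.2% were higher and 11.0% lower, and the counts of the pathway and marker lists below stand beside the same shares. Stc1, the secreted hormone stanniocalcin-1, read 6.87, 7.16 and 6.74 against 9.34, 9.07 and 9.24, a fall of 2.29 (SE 0.18, limma adjusted p = 8.65e-07) that exceeded that of Adm. Rora, a nuclear receptor, fell by 1.10 (SE 0.10, limma adjusted p = 2.81e-06), though not with the mean of its probe sets (limma adjusted p = 0.226). Plin2, which coats lipid droplets, was higher by 1.09 (SE 0.09, limma adjusted p = 1.41e-06) and Tfrc, the transferrin receptor, by 0.84 (SE 0.08, limma adjusted p = 5.81e-06). With the mean of each gene's probe sets, 8 of the list were higher and 4 lower. Of the further HIF subunits and regulators 1 of 8 tested passed. This was Epas1, the HIF-2 alpha subunit of endothelium and other cells, higher by 0.47 (SE 0.13, limma adjusted p = 0.0175). Leaving out peri-implant array 2 or 3 or mucosal array 1 ended the Epas1 call (limma adjusted p = 0.0834, 0.0544 and 0.0810). It was also lost with the mean of its probe sets and in the fit with no variance trend (limma adjusted p up to 0.348).

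Around glycolysis itself, 1 of 14 tested isoforms and neighbouring enzymes was higher and 4 were lower. Ldhb, the lactate dehydrogenase subunit that favours pyruvate, read 8.20, 8.33 and 8.57 against 6.90, 7.65 and 6.76 and was 2.40-fold higher (SE 0.25 on the log2 scale, limma adjusted p = 0.00221). Pgm2 and Bpgm, which handle sugar phosphates and 2,3-bisphosphoglycerate, fell by 0.71 and 0.56 (limma adjusted p = 3.91e-05 and 1.84e-04). Minpp1, a phosphatase of inositol phosphates, fell by 0.32 (limma adjusted p = 0.00735), and without peri-implant array 2 its call was lost (limma adjusted p = 0.0544). Among further sugar and monocarboxylate carriers, 2 of 7 tested were higher and 0 lower. Slc16a1, the monocarboxylate carrier MCT1, was higher by 0.76 (SE 0.09, limma adjusted p = 3.03e-05), but not with the mean of its probe sets (limma adjusted p = 0.673). Slc2a6, a hexose transporter of leukocytes, was higher by 2.77, or by 1.44 with its dim mucosal values raised to the floor (limma adjusted p = 0.00143 as deposited).

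Glycogen genes were higher in 3 of 8 tested and lower in 1. Pygb, brain-type glycogen phosphorylase, read 10.46, 10.56 and 10.58 against mucosal values between 8.69 and 9.09, 3.05-fold higher (SE 0.11 on the log2 scale, limma adjusted p = 3.48e-07). Gys1, glycogen synthase, was higher by 1.08 (limma adjusted p = 0.00174) and the liver-type phosphorylase Pygl by 0.32 (limma adjusted p = 0.00872, and 0.0556 without peri-implant array 2). Gys1, and Gbe1, which did not pass, are also on the list of genes induced by low oxygen, so both lists count them. Ugp2, which makes UDP-glucose, fell by 0.46 (limma adjusted p = 0.00163). In the pentose phosphate pathway, which branches off at glucose-6-phosphate, 2 of 6 tested were higher and 0 lower. Transaldolase, Taldo1, was higher by 0.44 (SE 0.08, limma adjusted p = 9.90e-04), and Pgls by 0.46 (limma adjusted p = 0.0393), a call that was lost in 10 of 16 alternatives. Around pyruvate dehydrogenase 9 of 11 tested did not pass. Pdp1, a phosphatase that switches this enzyme on, fell by 0.60 (limma adjusted p = 0.0164, and 0.0809 without mucosal array 1), and Mpc2, of the mitochondrial pyruvate carrier, was higher by 0.23 (limma adjusted p = 0.0468), a call lost in 8 of 16 alternatives.

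**Figure D4:**
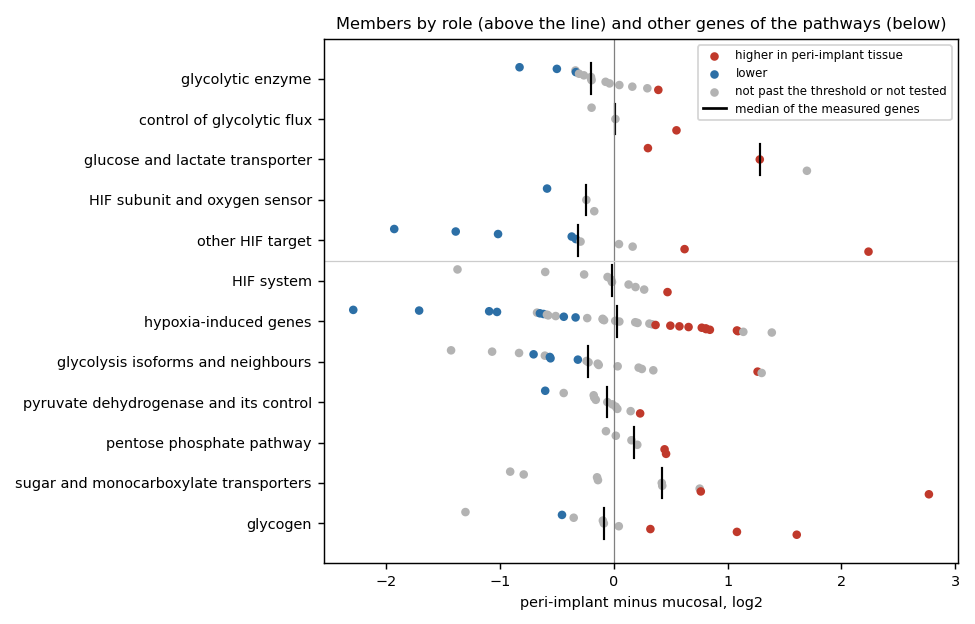
Peri-implant minus mucosal log2 difference of each measured gene (points; red, higher; blue, lower; grey, not past the threshold or not tested) and the median of each list (black bar), with the roles of the set above the line and further genes of the pathways below. Hypoxia-induced genes spread to both sides of 0, with a median of 0.03, and the enzymes cluster near their median of -0.20.

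Markers of several cell types differed between the tissues beside these genes. All 7 leukocyte markers and all 9 macrophage markers measured were higher around implants, with summed linear signals of 6810 to 7240 against 1690 to 1820 and of 24400 to 26100 against 10600 to 11400. Neutrophil markers were higher in 3 of 4 tested, with sums of 118000 to 161000 against 26300 to 28800, led by S100a8 and S100a9, which keratinocytes also express. The other that rose was Csf3r, at 2.26, while Cxcr2 did not pass, at -0.10 (limma adjusted p = 0.762). Mmp8 and Ncf1 were dim in both tissues and not tested. Of 7 fibroblast markers 5 fell and 1 rose, with sums of 39400 to 41200 against 63300 to 69500. Schwann cell markers were lower in 2 of 3 tested, with sums of 998 to 1220 against 3690 to 3840. Those 2 were Pmp22, at -2.54, and Mbp, at -0.85, while Prx, Sox10 and S100b had differences of 0.20, 1.24 and 0.79, and the median of the 5 measured was 0.20. Endothelial markers were higher in 1 of 7, near the 15.2% of all genes, with sums of 1420 to 1540 against 906 to 1260. That gene was Kdr, and in 6 of 16 alternatives, among them the removal of any peri-implant array, no gene of this list passed. Erythrocyte markers were higher in 3 of 5 (Alas2, Ahsp and Slc4a1), and in 1 to 4 under the alternatives. Their sums of 52800 to 73300 against 39300 to 53200 overlapped. Those sums rest on Hbb, which did not pass, at 0.40 (limma adjusted p = 0.0635). Keratinocyte markers were present in both tissues, with sums of 330000 to 449000 against 328000 to 458000, 3 of 9 higher and 2 lower. These sums rest on the brightest genes, such as Krt10 and Krt13, and single markers moved more. Krt4 was higher by 3.12 and Krt1 by 1.14, while Dsg1 fell by 0.63 (limma adjusted p = 2.96e-11, 1.05e-06 and 5.60e-05). Of 12 skeletal muscle markers 2 passed the filter on low signals and 8 were dim in both tissues. Mb, myoglobin, was the muscle gene that rose, at 8.44, 8.30 and 8.31 against dim mucosal values of 3.19, 3.74 and 5.82 (limma adjusted p = 1.19e-04). The muscle list as a whole had a median difference of -0.55, and 4 of its genes were lower without overlap against 1 higher. Over all genes tested, 17.9% were lower and 24.0% higher without overlap. Those 4 muscle genes were Acta1, Actn3, Myh2 and Ryr1, all under the filter and so not tested. With dim values raised to the floor, their differences were -1.04, -0.17, 0.00 and 0.00, so most of this rests on dim signals. Acta1, skeletal muscle actin, read 2.52, 1.55 and 4.53 against 6.90, 6.97 and 6.93. No marker in these lists stood at 0 on any array. The part of these cell types in the changes above was not tested, and in bulk tissue fewer cells of a type cannot be told apart from less RNA per cell.

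Median signals were 6.62 to 6.78 per array and 58.3% to 62.4% of values per array exceeded the floor. The highest signal of an array was 16.24 to 17.00 in mucosa and 16.17 to 16.81 around implants. Correlations between arrays over the tested probe sets were 0.97 to 0.98 within groups and 0.93 to 0.94 between groups. As a sign of RNA integrity, the 3′ minus 5′ difference of the Gapdh control probe sets was 0.15 to 0.24 around implants and 0.14 to 0.21 in mucosa, while that of beta-actin was 3.94 to 4.01 against 2.95 to 3.48. The part of that beta-actin difference in the results was not tested.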

How the data were processed

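Total RNA of 6 soft tissue samples was amplified and biotin-labelled with an Affymetrix 3′ kit and hybridised to 1 array each, per the labels' protocols. The deposited table holds log2 signals of 31099 probe sets, 57 of them controls. From the values, the authors had scaled each array: the mean linear signal with 2% trimmed at each end is 500.2 on every array, and the lowest value is 0. What software and background method were used is not given in the sources used here, and the values show no gene centring.

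The log2 values were used as deposited. Probe sets with a mean above the 40th percentile of non-control probe sets (5.68) were tested, 18625 in all. A value under 5.90, the 40th percentile of all single values, is called dim. Symbols came from the array annotation (20832 probe sets with 1 symbol, 436 with several, which were not named), and a gene was represented by its brightest non-control probe set, or for Gapdh by its brightest control probe set. Peri-implant tissue was compared with mucosa in limma 3.58.1 under R 4.3.3, by lmFit followed by eBayes with a trend in the variance and two-sided p-values. These were adjusted by Benjamini-Hochberg over all probe sets tested, and adjusted values under 0.05 passed. A difference is the peri-implant mean minus the mucosal mean. The fit was checked on simulated data.

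The members and gene lists were chosen with earlier results of these data known, so no list was tested and no p was adjusted over a list. All members are named, with up to 4 genes of smallest p past the threshold in each further pathway list and up to 2 bright genes of a marker list. The other marker genes named were chosen after their values were seen. The alternatives were the filter, scaling, floor, variance model, probe set, replicate block and leaving out each array. The limit of 14 for bright genes was set after seeing the data.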

Additional observations from a re-analysis of the deposited data

How the results depend on the processing

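Under 16 alternatives, 15 of them planned, 8 of the 15 called members kept their call and direction: Adm, Bnip3, Ndrg1, Pfkp, Egln3, Vegfa, Slc16a3 and Angptl4, the last without a value under the filter at the 60th percentile. Another 6 lost the call under at least 1, and the direction of Pfkfb3 turned with the mean of its probe sets (-0.12). Leaving out 1 array at a time gave 12 to 17 called members, 5 to 7 higher and 6 to 11 lower, and 3071 to 4044 probe sets in place of 4188. Without the variance trend 5 members were lower in place of 9, and quantile normalisation moved the enzymes' median from -0.20 to -0.14. Leaving out single arrays, that median ran from -0.23 to -0.19, and that of the other HIF targets from -0.42 to -0.25. Among members not past the threshold, Hk1 turned to -0.11 with the mean of its probe sets, and Pfkfb4 to -0.019 under quantile normalisation and to -0.0069 with arrays centred on the median. When single arrays were left out, the difference ran from -0.27 to 0.18 for Hk2, -0.30 to 0.10 for Pfkl, -0.16 to 0.42 for Eno2, -0.029 to 0.083 for Pfkfb4 and -0.036 to 0.18 for Mxi1. The causes of these changes were not tested, and each fit that left out an array also had fewer arrays.

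Arrays of the 2 groups share replicate numbers, but deviations of same-numbered arrays from their group means correlated at 0.01, -0.08 and 0.03, so the numbers were not taken as pairs. Arrays of different number correlated at -0.06 to 0.05. Each rat had both sites, and with 3 arrays per group this check cannot show whether the groups share animals. With the replicate block 4076 probe sets and 16 members were called, the added one being Higd1a. With 3 arrays per group, and dim signals for Slc2a3 and for Angptl4 in mucosa, small differences are not resolved.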
